A study of Homo sapiens with 96 samples.

Results

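The RNA of KDM2B and of its paralog KDM2A was followed across 5 gene-level RNA-seq count tables of K562 cells, a human chronic myeloid leukemia line with erythroid features. The 2 genes were taken by their identifiers, ENSG00000089094 and ENSG00000173120, in 4 tables of 60605 gene IDs each, and by symbol in a table of 50037 symbols. Both had counts in all 96 libraries and passed the filter on low counts in every table. KDM2B is the tagged gene of 3 of the tables and the gene that the construct lines are named for, so its own RNA bears on what each group is.

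The study degraded subunits of the Polycomb complex PRC1.1 in K562 cells with an auxin-type degron, in which the ligand 5PhIAA sends an mAID-tagged protein to the proteasome. BCOR-degron cells were collected after 2, 8, 24 and 72 h of 5PhIAA or untreated, and KDM2B-degron cells after the same times or untreated. The construct table holds lines named LF, SF, dLRRS and dCxxC, deposited as KDM2B mutants, and the line EV, each with 5PhIAA or DMSO. The inhibitor table holds cells deposited as KDM2B-mAID and given 5PhIAA with GSK343 (an inhibitor of the PRC2 methyltransferase EZH2), 5PhIAA, GSK343 or DMSO. The last table holds KDM2B-mAID cells with the further name J2_7 and KDM2B-mAID cells without it (mAID below), each with the same 4 treatments. Every one of the 32 groups had 3 libraries. The labels spell out none of the construct names, and they mention a JARID2 and AEBP2 double knockout without saying that J2_7 is that line. They give no doses, no times for the last 3 tables, and no number of clones. The labels also do not say whether the 3 libraries of a group came from separate cultures, so each p-value measures the spread between libraries, which may be technical.

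KDM2B binds unmethylated CpG dinucleotides through a ZF-CXXC zinc finger and brings PRC1.1, with BCOR or BCORL1, PCGF1 and the ubiquitin ligase RING1 or RNF2, to CpG islands, where histone H2A is monoubiquitinated. KDM2A has the same order of domains, a JmjC demethylase domain, the ZF-CXXC finger, a PHD finger, an F-box and leucine-rich repeats, and also binds CpG islands, but it is not a PRC1.1 subunit. A shorter KDM2B product that starts inside the gene and lacks the JmjC domain is known, and gene-level counts do not separate it from the full-length one.

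In the GENCODE annotation on hg38, KDM2B spans chr12:121429096-121581023 on the minus strand, with 18 transcripts, 13 of them protein-coding. Its main transcript has 5315 bases in 23 exons and codes for 1336 amino acids. KDM2A spans chr11:67119263-67258082 on the plus strand, with 15 transcripts, 4 of them protein-coding, and its main transcript has 7386 bases in 21 exons and codes for 1162 amino acids. The noncoding gene KDM2B-DT runs on the opposite strand and shares 232 bases with the 5′ end of KDM2B, and the sources used here do not give the strand setting of the counting. KDM2B-DT had 0 to 24 counts in any library and at most 1.84 CPM (counts scaled to library size), well under the level of KDM2B in the 4 ID tables.

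CpG is what the ZF-CXXC fingers of both proteins bind, so 4 promoter windows of the genes are shown here, those where the main transcripts start and the KDM2B windows with the most CpGs, from 5′ to 3′ in the direction of transcription, with each CpG in capitals. They are RefSeq windows on GRCh38.p14 of 300 bases around a transcription start, and the motif CG reads the same on both strands.
KDM2B, start of the main transcript, chr12:121580974-121581273, minus strand: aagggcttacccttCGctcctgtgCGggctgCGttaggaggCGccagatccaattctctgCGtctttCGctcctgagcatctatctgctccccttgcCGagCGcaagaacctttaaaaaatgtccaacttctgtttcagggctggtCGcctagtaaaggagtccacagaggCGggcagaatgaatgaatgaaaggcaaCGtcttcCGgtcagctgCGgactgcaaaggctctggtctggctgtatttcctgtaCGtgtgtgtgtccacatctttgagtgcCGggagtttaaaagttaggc
KDM2B, further start, chr12:121580197-121580496, minus strand: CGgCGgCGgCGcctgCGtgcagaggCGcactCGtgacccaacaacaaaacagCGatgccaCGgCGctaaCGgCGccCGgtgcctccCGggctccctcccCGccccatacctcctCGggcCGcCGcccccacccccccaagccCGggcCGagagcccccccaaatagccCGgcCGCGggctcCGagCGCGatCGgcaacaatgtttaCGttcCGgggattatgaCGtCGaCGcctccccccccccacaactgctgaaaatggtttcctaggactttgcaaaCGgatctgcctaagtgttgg
KDM2B, start inside the gene, chr12:121467329-121467628, minus strand: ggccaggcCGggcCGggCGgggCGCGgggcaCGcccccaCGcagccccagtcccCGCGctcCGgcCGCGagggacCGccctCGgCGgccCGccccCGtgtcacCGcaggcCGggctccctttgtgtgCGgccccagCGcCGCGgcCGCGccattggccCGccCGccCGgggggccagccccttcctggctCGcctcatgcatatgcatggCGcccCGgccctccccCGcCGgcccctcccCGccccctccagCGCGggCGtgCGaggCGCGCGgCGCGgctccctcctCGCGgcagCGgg
KDM2A, start of the main transcript, chr11:67119013-67119312, plus strand: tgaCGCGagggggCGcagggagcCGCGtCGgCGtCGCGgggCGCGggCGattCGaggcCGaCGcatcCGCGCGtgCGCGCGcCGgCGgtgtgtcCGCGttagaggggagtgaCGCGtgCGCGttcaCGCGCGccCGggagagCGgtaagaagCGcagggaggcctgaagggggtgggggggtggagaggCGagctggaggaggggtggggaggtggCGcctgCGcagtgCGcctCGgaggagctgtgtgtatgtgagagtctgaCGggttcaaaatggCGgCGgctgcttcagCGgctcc
The window of the main KDM2B transcript holds 15 CpGs, and 48.9% of all 35116 promoter windows hold at least as many. The further KDM2B window, where other transcripts start, holds 33, reached by 17.2% of windows. The window inside the KDM2B gene holds 46, a number reached by 2.89% of windows, and it contains no GENCODE transcript start. The window of the main KDM2A transcript holds 44, reached by 4.19% of windows. The median window holds 14 CpGs, and 96.0% of windows hold at least 1. KDM2B has another window with 15 CpGs and KDM2A another with 12, neither of them shown, so the starts of each gene differed among themselves in CpG content.

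Levels are given as CPM, library-scaled counts with factors from the trimmed mean of M values (TMM) within a table, and a gene passed the test where its adjusted p in edgeR's quasi-likelihood test, corrected over all genes of a comparison by Benjamini-Hochberg, was under 0.05. Statements that libraries of 2 groups overlap or not only describe the values, and the share of all genes that separate so was not counted. Library totals ranged over 782663 to 24545679 counts. Among them the first EV library with 5PhIAA had 2346542 counts, and the first J2_7 library with GSK343 had 782663. That EV library also stood apart in its profile: a chi-square comparison of its counts with those of the 2 other EV libraries with 5PhIAA gave 84.6 and 77.5 per degree of freedom, against at most 16.5 in any other pair of replicates. The KDM2A differences from EV with 5PhIAA and the ligand effect in EV are therefore also given without it. The erythroid regulator GATA1 had table medians of 174 to 278 CPM, while the B cell gene MS4A1 and the endothelial gene CDH5 had medians of 0. Another endothelial marker, PECAM1, had a median of 0.798 CPM in the BCOR table and of 11.04 to 24.99 CPM in the 4 others. EPCAM, an epithelial marker, had medians of 24.7 to 74.9 CPM. Other erythroid markers were less even than GATA1. Fetal globin HBG1 had medians of 4.20 to 8.93 CPM in the 4 ID tables and of 4794 CPM in the J2_7 table. The transferrin receptor gene TFRC went the other way, with 1437 to 2249 CPM and 252 CPM. Embryonic globin HBE1 had a median of 3286 CPM in the J2_7 table and of at most 0.25 CPM in the 4 others, so that table stands apart and no level was compared across tables.

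In KDM2B-degron cells the RNA of KDM2B itself did not pass the test at any time after the ligand was added. KDM2B had 78.9, 85.2 and 74.2 CPM after 2 h of 5PhIAA, 87.5, 82.6 and 85.8 CPM after 8 h, 89.97, 79.9 and 74.2 CPM after 24 h and 84.2, 85.0 and 83.0 CPM after 72 h, against 73.0, 70.4 and 81.6 CPM in untreated cells. All libraries at 8 h and 72 h were above all untreated libraries, while those at 2 h and 24 h overlapped them. How many other genes separated in this way was not counted. The log2 fold changes were 0.08, 0.18, 0.12 and 0.16 with adjusted p of 0.648, 0.151, 0.266 and 0.138 at 2, 8, 24 and 72 h. Of all 14524 genes tested, 6.69%, 10.7%, 33.1% and 25.8% passed at these times in either direction. The 4 intervals (1.96 standard errors each way) together ran from -0.07 to 0.34, so a change of KDM2B RNA by more than 0.34 on the log2 scale is outside all of them. The degron removes protein, and these counts hold no measure of the KDM2B protein.

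KDM2A did not pass the test at any time in KDM2B-degron cells either. It had 119, 106 and 109.8 CPM at 2 h of 5PhIAA, 111, 107 and 117 CPM at 8 h, 98.5, 90.7 and 88.8 CPM at 24 h and 104, 95.1 and 87.8 CPM at 72 h, against 105, 99.4 and 113 CPM in untreated cells. The 24 h libraries all lay below the untreated ones, and the 72 h libraries overlapped them. The log2 fold change was -0.19 ± 0.08 (SE) at 24 h with an adjusted p of 0.0618, and -0.15 ± 0.08 at 72 h with an adjusted p of 0.169. At 2 h and 8 h it was 0.08 each time. The 24 h value sat at the threshold: it passed with median-of-ratios scaling at -0.20 (adjusted p = 0.0463), with DESeq2 (adjusted p = 0.0435), without the second untreated library or without the first 24 h library.

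In BCOR-degron cells KDM2B RNA again did not pass at any time, whereas KDM2A fell at 8 h. KDM2A had 97.8, 114 and 103 CPM at 2 h, 90.8, 89.0 and 90.5 CPM at 8 h, 103, 101 and 103 CPM at 24 h and 112, 108 and 107 CPM at 72 h, against 113, 105 and 112 CPM in untreated cells. The 3 libraries at 8 h were the lowest of the table and did not overlap the untreated ones. The log2 fold change at 8 h was -0.29 ± 0.07 (SE, n = 3 libraries a group, adjusted p = 0.00836), in a comparison where 7.83% of 14110 genes passed. KDM2A was at -0.07, -0.10 and -0.01 at 2, 24 and 72 h, with adjusted p of 0.701, 0.320 and 0.923, and its 24 h libraries lay just below the untreated ones, while those at 72 h overlapped them. The 8 h call held in all 6 fits that left out 1 library, with values of -0.33 to -0.27.

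KDM2B had 106, 108 and 90.6 CPM at 2 h, 104, 95.5 and 99.0 CPM at 8 h, 102, 99.99 and 102 CPM at 24 h and 88.2, 90.6 and 94.7 CPM at 72 h of BCOR degradation, against 97.2, 93.0 and 92.2 CPM in untreated cells. Only the 24 h libraries lay wholly above the untreated ones. The log2 fold changes were 0.11, 0.08, 0.11 and -0.05, with adjusted p of 0.523, 0.545, 0.343 and 0.704, and 2.83%, 7.83%, 14% and 18.9% of genes passed at the 4 times. Between 24 h and 72 h KDM2B differed by -0.15 ± 0.07 (SE, adjusted p = 0.289) and KDM2A by 0.09 (adjusted p = 0.532), in a comparison where 1.62% of genes passed. In KDM2B-degron cells the same step was 0.05 for KDM2B and 0.04 for KDM2A (adjusted p = 0.762 and 0.772), and 7.44% of genes passed.

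**Figure D1:**
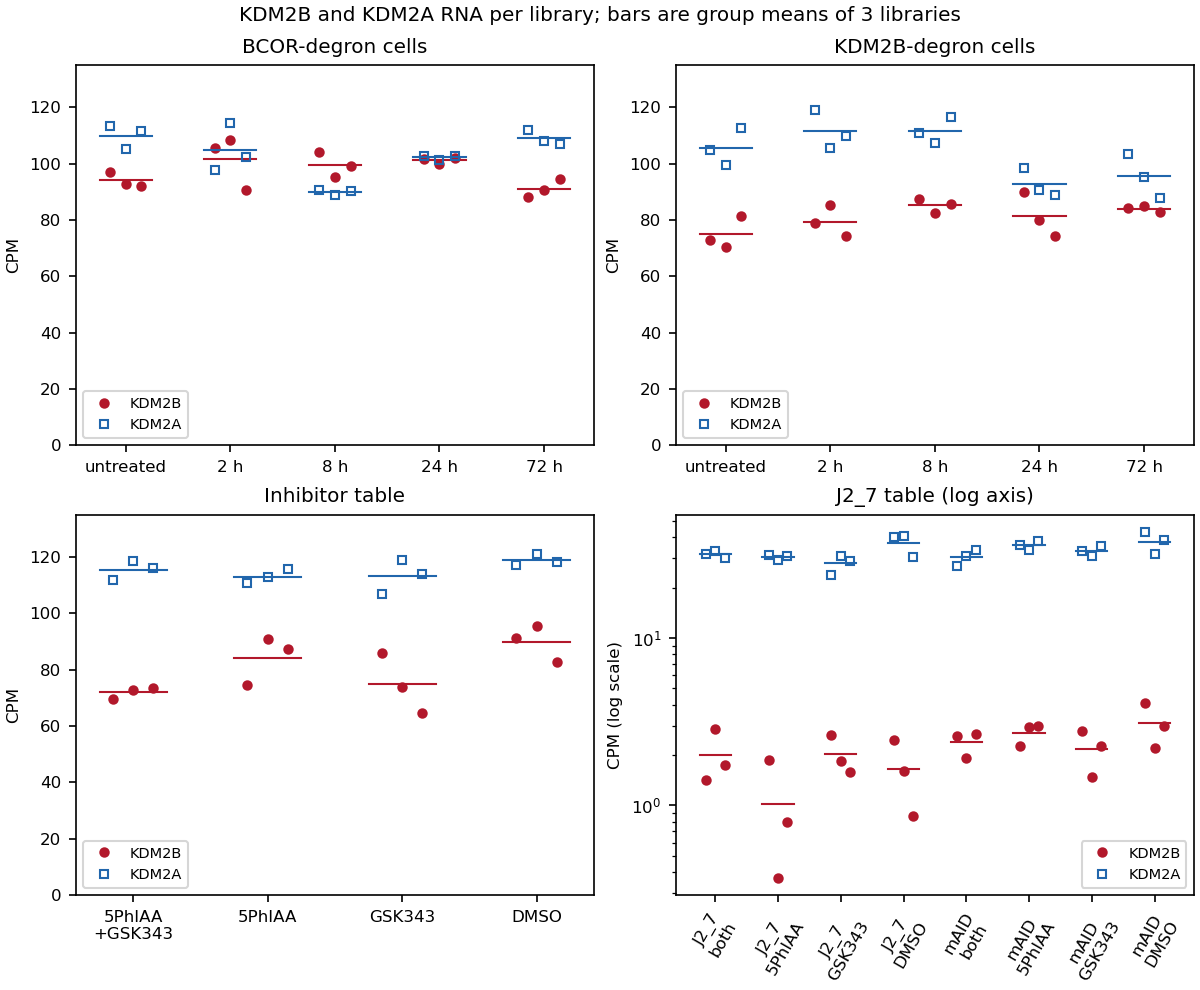
Each point is the CPM of KDM2B (filled circles) or KDM2A (open squares) in 1 library, by time of 5PhIAA or by treatment, and bars are means of 3 libraries; the axis of the J2_7 table is logarithmic. In the time courses and the inhibitor table both genes lie between 64.6 and 121 CPM, and in the J2_7 table KDM2B lies between 0.37 and 4.11 CPM and KDM2A between 23.8 and 42.9 CPM.

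Within each library the ratio of KDM2B counts to KDM2A counts needs no scaling between libraries, and it is given here as a description with no test. The times of a course share their untreated libraries, and how many other pairs of genes separate as fully was not counted. In BCOR-degron cells the ratio averaged 0.971 at 2 h of ligand, 1.105 at 8 h of ligand, 0.989 at 24 h and 0.837 at 72 h, against 0.856 in untreated cells. The libraries at 8 h, at 1.07 to 1.15, and at 24 h, at 0.986 to 0.993, lay above the untreated range of 0.826 to 0.884, and the 72 h range of 0.788 to 0.885 covered it. In KDM2B-degron cells the ratio averaged 0.715 at 2 h of ligand, 0.764 at 8 h of ligand, 0.877 at 24 h and 0.884 at 72 h, against 0.710 in untreated cells. Here the libraries spanned 0.735 to 0.788 at 8 h, 0.835 to 0.913 at 24 h and 0.812 to 0.945 at 72 h, all above the untreated range of 0.697 to 0.724, and the 2 h range of 0.663 to 0.806 covered it. In EV cells the ratio averaged 0.742 with 5PhIAA and 0.629 with DMSO, with ranges of 0.672 to 0.790 and 0.619 to 0.645 that did not overlap. The highest of the 5PhIAA values, 0.790, is that of the shallow library, and the 2 others lay above the DMSO range as well. In the inhibitor table it averaged 0.623 with 5PhIAA and GSK343, 0.745 with 5PhIAA, 0.664 with GSK343 and 0.755 with DMSO.

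**Figure D2:**
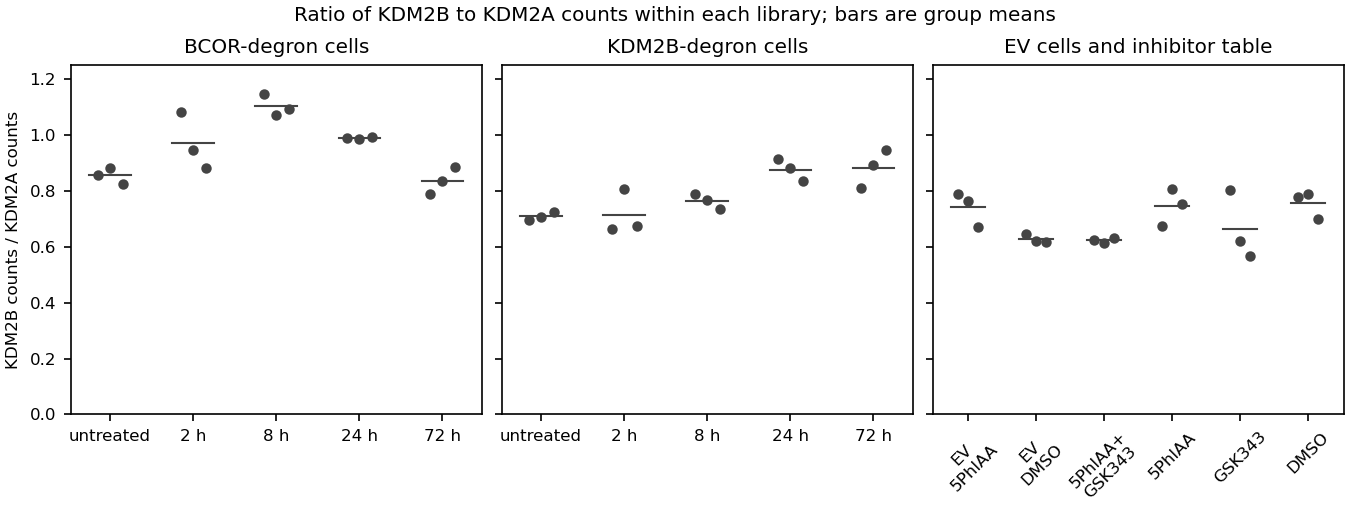
Each point is the count of KDM2B divided by the count of KDM2A in 1 library, by time or treatment, and bars are means of 3 libraries. The 8 h libraries of the BCOR-degron cells lie at 1.07 to 1.15, with a single 2 h library among them, and in KDM2B-degron cells all 8 h, 24 h and 72 h libraries lie above the untreated ones.

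Set per kilobase of the main transcript, the RNAs of the paralogs stood near each other in cells without a construct in 4 of the tables. The level per kilobase of KDM2B over that of KDM2A averaged 1.19 in untreated BCOR-degron cells, 0.986 in untreated KDM2B-degron cells, 0.874 in EV cells with DMSO and 1.05 in DMSO-treated cells of the inhibitor table. In the J2_7 table it averaged 0.0599 in J2_7 cells and 0.112 in mAID cells, both with DMSO, from 9 to 42 KDM2B counts in a library. This scale assumes that all reads come from the main transcripts and that reads grow with transcript length, which was not tested. It also depends on the length chosen: the joined exons of all transcripts cover 13632 bases in KDM2B and 10381 in KDM2A. By those lengths KDM2B would stand lower against KDM2A. The labels do not say which tables used Smart-3SEQ, a 3′-end method, so the J2_7 values are not set against the others.

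The construct lines held far more KDM2B RNA than EV. With DMSO, dCxxC cells had 3691, 3594 and 3581 CPM of KDM2B, dLRRS cells 3071, 2968 and 2747 CPM, LF cells 2462, 2217 and 2478 CPM and SF cells 895, 924 and 874 CPM, against 84.3, 79.6 and 82.3 CPM in EV cells. Every library of a construct line was above every EV library. The log2 fold changes against EV were 5.46 ± 0.08 for dCxxC (SE, adjusted p = 1.17e-32), 5.16 ± 0.08 for dLRRS (adjusted p = 4.94e-32), 4.86 ± 0.08 for LF (adjusted p = 2.23e-31) and 3.45 ± 0.07 for SF (adjusted p = 5.54e-28). KDM2B had the lowest p of all 15910 genes in dCxxC, dLRRS and LF cells, where 47.4%, 41.8% and 42% of genes passed, and stood at rank 4 in SF cells, where 40% passed. The gene is the one the constructs are named for, so these values describe how many KDM2B reads each line gave. Gene-level counts do not separate RNA of the construct from that of the cell's own KDM2B.

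The lines also differed from each other in KDM2B CPM. The order with DMSO, high to low, was dCxxC with a mean of 3622 ± 60.6 CPM (SD, n = 3), dLRRS with 2929 ± 166, LF with 2386 ± 146 and SF with 898 ± 25.02. No libraries of neighbouring lines overlapped, and each step passed: dCxxC exceeded dLRRS by 0.31 ± 0.07 on the log2 scale (SE, adjusted p = 0.000257), dLRRS exceeded LF by 0.30 ± 0.07 (adjusted p = 0.000509), and SF lay below LF with -1.41 ± 0.07 (adjusted p = 2.11e-17). In these comparisons 47.6%, 41.6% and 22.8% of genes passed. The dCxxC line exceeded LF by 0.60 (adjusted p = 2.17e-09, 52.4% of genes passed), so the line with the highest KDM2B CPM had about 1.52 times that of LF. Any comparison between construct lines thus sets side by side cells with unequal KDM2B CPM. CPM counts reads, and a shorter RNA gives fewer reads for the same number of molecules. The lengths of the constructs are not given here, so amounts of RNA were not compared.

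KDM2A RNA was lower than in EV in 3 of the 4 construct lines. With DMSO it had 111, 107 and 114 CPM in dCxxC cells, 132, 137 and 133 CPM in dLRRS cells, 97.5, 96.2 and 96.0 CPM in LF cells and 109, 98.6 and 107 CPM in SF cells, against 131, 128 and 133 CPM in EV cells. The LF, SF and dCxxC libraries all lay below every EV library, while the dLRRS libraries overlapped those of EV. The log2 fold changes against EV were -0.43 ± 0.06 in LF (SE, adjusted p = 6.6e-08), -0.32 ± 0.06 in SF (adjusted p = 2.06e-05), -0.24 ± 0.06 in dCxxC (adjusted p = 0.000783) and 0.04 ± 0.06 in dLRRS (adjusted p = 0.651, interval -0.08 to 0.15). In these 4 comparisons 40% to 47.4% of all genes passed, so a passing gene was common in them. The 3 calls held in every fit that left out 1 library, but all 3 changes are smaller than the 0.585 (log2) that the labels name as a fold threshold.

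The order of KDM2A levels was not that of KDM2B. From high to low, KDM2A stood at 134 ± 2.69 CPM in dLRRS (SD, n = 3), 131 ± 2.50 in EV, 111 ± 3.17 in dCxxC, 105 ± 5.50 in SF and 96.6 ± 0.834 in LF. The neighbours dCxxC and SF differed by 0.08 (adjusted p = 0.263, 50.8% of genes passed) and SF and LF by 0.12 (adjusted p = 0.156), neither of which passed. KDM2A exceeded LF by 0.47 ± 0.06 in dLRRS (SE, adjusted p = 1.47e-08) and by 0.20 ± 0.06 in dCxxC (adjusted p = 0.00504). It exceeded SF by 0.35 in dLRRS (adjusted p = 4.43e-06, 31.9% of genes passed) and was lower in dCxxC than in dLRRS by -0.27 (adjusted p = 0.000136). The dLRRS line, next to dCxxC in KDM2B CPM, thus had the highest mean of KDM2A, not told apart from EV. LF, next below it in KDM2B CPM, had the lowest.

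**Figure D3:**
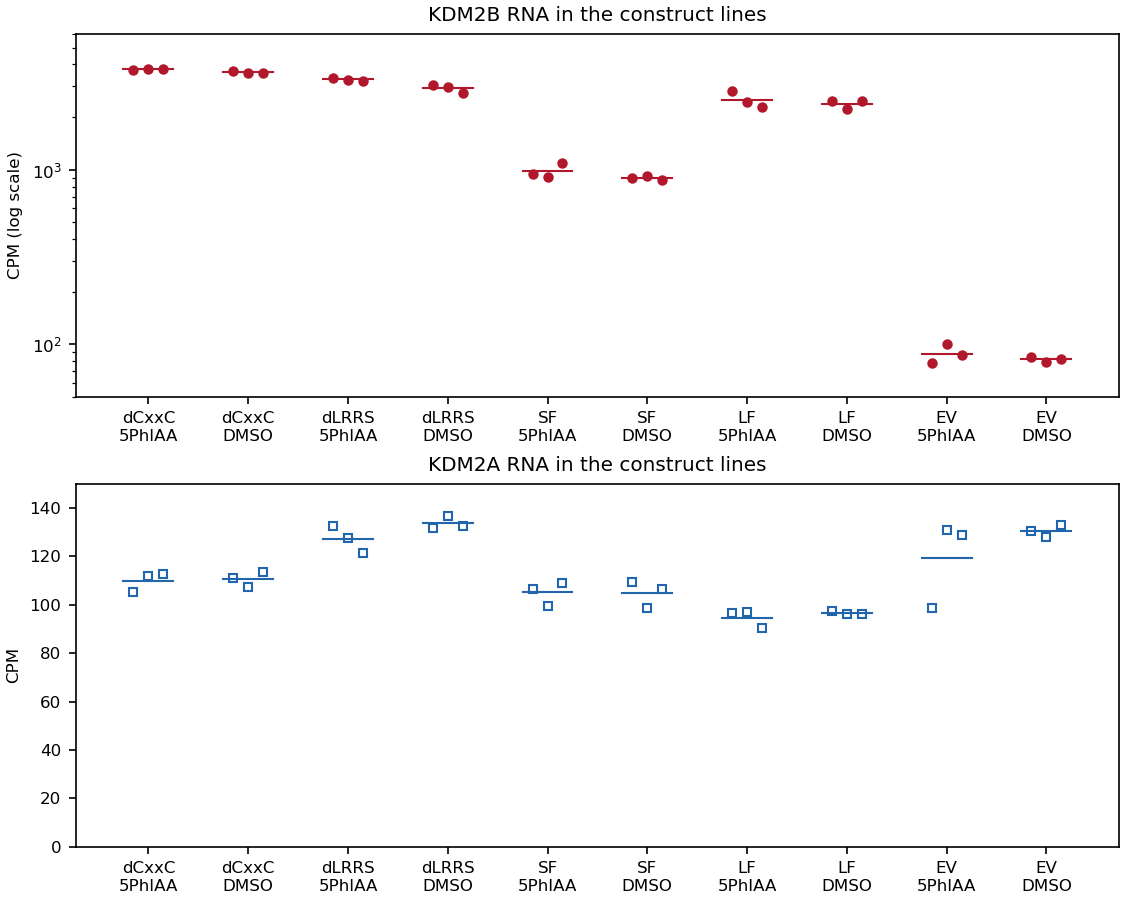
Each point is the CPM of KDM2B (upper panel, log scale) or KDM2A (lower panel, linear from 0) in 1 library of a construct line with 5PhIAA or DMSO, and bars are means of 3 libraries. KDM2B lies between 874 and 3779 CPM in the 4 construct lines and at 77.96 to 99.9 CPM in EV, and KDM2A with DMSO is lower in LF, SF and dCxxC than in EV.

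The same comparison with 5PhIAA, chosen after the DMSO values were seen, gave the same direction for KDM2B in all 4 lines and for KDM2A in LF, SF and dCxxC. KDM2B with 5PhIAA had 3714, 3769 and 3779 CPM in dCxxC, 3338, 3273 and 3238 CPM in dLRRS, 2826, 2425 and 2277 CPM in LF and 950, 903 and 1086 CPM in SF, against 77.96, 99.9 and 86.5 CPM in EV. KDM2A with 5PhIAA had 105, 112 and 113 CPM in dCxxC, 133, 128 and 121 CPM in dLRRS, 96.6, 97.0 and 90.4 CPM in LF and 107, 99.5 and 109 CPM in SF, against 98.7, 131 and 129 CPM in EV. The EV library at 98.7 CPM is the shallow one: it lay below every SF and dCxxC library, while the 2 other EV libraries lay above them all. The KDM2A log2 fold changes were -0.38 in LF (adjusted p = 1.26e-06), -0.24 in SF (adjusted p = 0.00175), -0.17 in dCxxC (adjusted p = 0.0288) and 0.04 in dLRRS (adjusted p = 0.703), in comparisons where 44.9%, 36.8%, 32.3% and 21.6% of genes passed. Without the shallow EV library the values were -0.45 in LF, -0.30 in SF, -0.24 in dCxxC and -0.03 in dLRRS, and the first 3 passed. The dCxxC call was lost in the 5 other fits that left out 1 library, and the SF call was lost without the second EV library.

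The ligand itself moved neither gene past the threshold in any of the 5 lines. KDM2B differed between 5PhIAA and DMSO by 0.05 in dCxxC, 0.16 in dLRRS, 0.07 in LF, 0.13 in SF and 0.13 in EV on the log2 scale, and KDM2A by -0.01, -0.07, -0.03, 0.00 and -0.08 in the same order of lines. The smallest adjusted p was 0.134, for KDM2B in dLRRS, whose 5PhIAA libraries all lay above the DMSO ones, and it passed at 0.00281 where only those 2 groups were fitted. The shares of all genes that passed were 0.0503% in dCxxC, 8.57% in dLRRS, 0.00629% in LF, 0.0629% in SF and 11.2% in EV, the last with the shallow library kept. Without the shallow EV library, the EV values were 0.18 for KDM2B and -0.01 for KDM2A. Across all tables with a KDM2B tag or construct, 12 comparisons set 5PhIAA alone against its control, and in 0 of them did either gene pass in edgeR's test, although 2 of the 12 for each gene had an unadjusted p under 0.05 and DESeq2 passed 0 for KDM2B and 1 for KDM2A. The log2 fold changes spanned -0.41 to 0.18 for KDM2B and -0.27 to 0.08 for KDM2A. No difference between the ligand effect in a construct line and that in EV passed for KDM2B or KDM2A, in tests where 2.26% of all genes passed in dCxxC, 0.0817% in dLRRS, 1.7% in LF and 1.53% in SF. These tests and shares keep the shallow EV library, and for both genes none of the differences passed in any fit that left out 1 library.

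In the inhibitor table KDM2B was lower with 5PhIAA and GSK343 together than with DMSO, and KDM2A did not pass in any comparison. KDM2B had 69.7, 72.9 and 73.4 CPM with both agents, 74.6, 91.04 and 87.3 CPM with 5PhIAA and 86.0, 74.0 and 64.6 CPM with GSK343, against 91.1, 95.7 and 82.8 CPM with DMSO. The libraries with both agents lay wholly below the DMSO ones, and those of each single agent overlapped them. The log2 fold change was -0.32 ± 0.10 with both agents (SE, adjusted p = 0.0283, 24.9% of 13374 genes passed), -0.09 ± 0.10 with 5PhIAA (adjusted p = 0.740, 3.93% passed) and -0.28 ± 0.10 with GSK343 (adjusted p = 0.09999, 9.83% passed). The call with both agents was lost in 5 of the 6 fits that left out 1 library, with values of -0.38 to -0.28 in the 6 fits. Adding 5PhIAA to GSK343 changed KDM2B by -0.04 (adjusted p = 0.894, 2.59% passed), and the interaction was 0.05 (adjusted p = 0.991), where 0% of genes passed.

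KDM2A in the inhibitor table had 112, 119 and 116 CPM with both agents, 111, 113 and 116 CPM with 5PhIAA and 107, 119 and 114 CPM with GSK343, against 117, 121 and 118 CPM with DMSO. Its log2 fold changes were -0.04, -0.07 and -0.07 with adjusted p of 0.682, 0.671 and 0.576. The libraries with 5PhIAA lay just below all DMSO libraries and those of the other treatments overlapped them, and the lowest bound of the 3 intervals was -0.20.

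The J2_7 table measured KDM2B at the edge of detection. It had 1 to 42 counts in a library there, while KDM2A had 18 to 488, and the labels name Smart-3SEQ, a 3′-end method, as an alternative library protocol. With DMSO, KDM2B had 30, 17 and 9 counts in J2_7 cells, against 42, 13 and 29 counts in mAID cells. These counts gave 2.47, 1.60 and 0.869 CPM in J2_7 cells and 4.11, 2.20 and 2.98 CPM in mAID cells, and the groups overlapped. The log2 fold change was -0.93 ± 0.30 (SE, adjusted p = 0.0174), where 33.2% of 14649 genes passed. The call was lost without the first mAID library (-0.66, adjusted p = 0.187) and without the third J2_7 library (-0.66, adjusted p = 0.11).

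KDM2A did not pass between J2_7 and mAID cells, with 40.1, 40.9 and 30.3 CPM in J2_7 cells and 42.9, 31.6 and 38.5 CPM in mAID cells with DMSO and a log2 fold change of -0.04 (adjusted p = 0.835). With 5PhIAA and GSK343 together it had 31.6, 33.2 and 29.99 CPM in J2_7 cells and 26.8, 31.04 and 33.7 CPM in mAID cells. With 5PhIAA it had 31.5, 29.2 and 30.9 CPM in J2_7 cells and 35.8, 33.7 and 38.1 CPM in mAID cells. With GSK343 it had 23.8, 31.01 and 28.9 CPM in J2_7 cells and 33.1, 30.96 and 35.4 CPM in mAID cells. The 23.8 CPM rests on 18 counts of the shallowest library. All 6 KDM2A differences from DMSO were negative, 4 of them had an unadjusted p under 0.05, none passed in edgeR's test or in DESeq2, and the 3 of a line share their DMSO libraries: they were -0.23, -0.27 and -0.33 in J2_7 cells and -0.30, -0.09 and -0.20 in mAID cells, in the order both agents, 5PhIAA alone and GSK343 alone. The adjusted p values were 0.137, 0.215 and 0.0677 in J2_7 cells and 0.0685, 0.820 and 0.395 in mAID cells. The shares of all genes that passed were 15.2%, 3.67% and 8.55% in J2_7 cells and 15.5%, 3.46% and 1.55% in mAID cells.

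KDM2B in the treated groups of that table had 1.43, 2.86 and 1.75 CPM with both agents, 1.87, 0.37 and 0.795 CPM with 5PhIAA and 2.64, 1.83 and 1.58 CPM with GSK343 in J2_7 cells. The 0.37 CPM rests on 1 count, and the 2.64 CPM rests on 2 counts of the shallowest library. In mAID cells it had 2.59, 1.92 and 2.67 CPM with both agents, 2.27, 2.93 and 2.97 CPM with 5PhIAA and 2.77, 1.48 and 2.27 CPM with GSK343. None of its 6 differences from DMSO passed, and their intervals together ran from -1.18 to 0.94. The differences of the treatment effects between J2_7 and mAID cells did not pass for either gene, with adjusted p of 0.587 and above, where 0.512% of all genes passed for both agents, 0.00683% for 5PhIAA and 0.13% for GSK343.

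**Figure D4:**
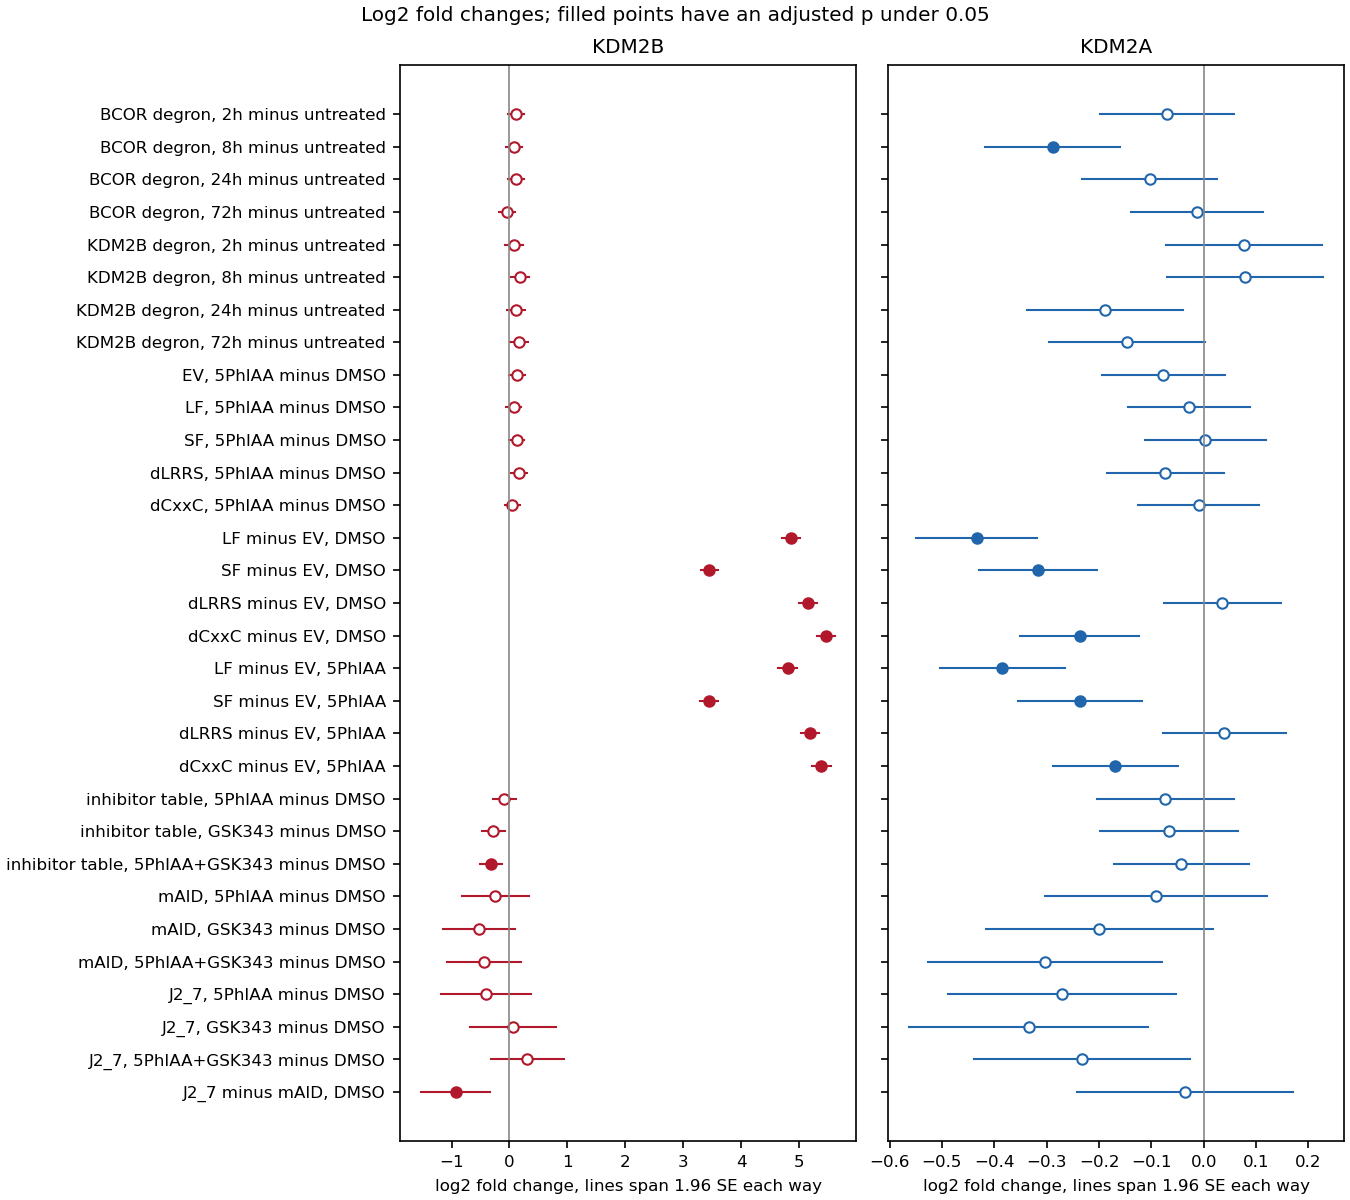
Each point is the log2 fold change of KDM2B (left) or KDM2A (right) in 1 comparison, lines span 1.96 standard errors each way, and filled points have an adjusted p under 0.05. KDM2B stands at 3.45 to 5.46 in the construct lines and near 0 in most other comparisons, and KDM2A is lower at 8 h of BCOR degradation and in LF, SF and dCxxC; the scales of the panels differ.

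Counted over all 40 comparisons of 2 groups, KDM2B passed as higher in 13 and as lower in 3, and KDM2A as higher in 3 and as lower in 8. All 13 higher calls of KDM2B and all 11 calls of KDM2A but that at 8 h of BCOR degradation lie in the construct table, and these comparisons share lines with each other. Passing genes were common where these calls fell. The share of all genes that passed was 7.83% at 8 h of BCOR degradation. It was between 21.6% and 52.4% in every other comparison with a call. How many calls other genes had over the 40 comparisons was not counted. Over the 22 groups of the 4 tables without constructs, centred within each table, the Pearson correlation of KDM2B with KDM2A was 0.24. Over the 10 groups of the construct table it was -0.31. No test was run on these correlations, so they are descriptions of the group means.

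By the same measure over the 22 groups and 11295 genes, the genes whose group means followed KDM2B most closely were IGSF1, an immunoglobulin superfamily membrane protein (r = 0.881), SH2D3C, an SH2-domain adaptor (0.824), MYO16, an unconventional myosin (0.818), the mitophagy receptor BNIP3L (0.808) and the phospholipase PLA2G6 (0.805). The spread of KDM2B across these groups, an SD of 0.289 on the log2 scale, came with counts of at most 42 in 8 of the groups. For KDM2A the nearest were the Golgi protein GORASP1 (0.850), the heterochromatin protein CBX1 (0.846), CASP2, a caspase (0.837), the Mediator subunit MED1 (0.819) and the kinase HIPK1 (0.818). In the construct table, over 10 groups and 15910 genes, the nearest to KDM2B were the small GTPase RAC1 (0.981), MYO1F, a class I myosin (0.968), the mitochondrial protease YME1L1 (0.960), the splicing factor CRNKL1 (0.954) and the histone acetyltransferase HAT1 (0.953) in order. The EV groups lie far below the 4 construct lines in KDM2B, so a gene that differs between EV and the constructs has a high value here, even where it differs little. The SD over these groups on the log2 scale was 2.12 for KDM2B and 0.424 for MYO1F. It was 0.0535 for RAC1 and 0.0892 to 0.0917 for HAT1, YME1L1 and CRNKL1.

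The partners of KDM2B in PRC1.1 were read from a list of 9 genes, all measured. After 72 h in KDM2B-degron cells, where 25.8% of all genes passed, 1 of 9 rose and none fell in edgeR's test: the corepressor BCOR had a mean of 449 CPM at 72 h and 254 CPM untreated, a log2 fold change of 0.82 ± 0.06 (SE), while the median of the list was 0.01 and that of all genes -0.01. In BCOR-degron cells at 72 h, where 18.9% of all genes passed, 3 of 9 rose, BCOR with 1.81, the RYBP paralog YAF2 with 0.42 and the BCOR paralog BCORL1 with 0.28, and none fell, with medians of 0.04 for the list and 0.00 for all genes. BCOR is the tagged gene of those cells. Against EV, both with DMSO, 40% to 47.4% of all genes passed. In dCxxC cells 5 of 9 were higher and 1 lower, led by BCOR with means of 561 CPM in dCxxC and 233 CPM in EV (1.27), with RING1 at -0.35 and a list median of 0.24. In dLRRS cells 3 were higher, led by the adaptor RYBP (0.48), and 2 lower, BCOR (-0.45) and RING1 (-0.32), with a list median of 0.11. In LF cells RYBP was higher (0.28) and BCORL1 lower (-0.51), and in SF cells RYBP was higher (0.37) and RING1 (-0.33) and BCORL1 (-0.28) lower, with list medians of -0.11 and -0.02. The medians of all genes were -0.01 in dCxxC and -0.02 in the 3 other lines.

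The other genes of the ZF-CXXC family, which bind CpG or recruit enzymes to it, numbered 9 measured of 10. At 72 h in KDM2B-degron cells 1 rose, CXXC5 (0.39), and 3 fell, CXXC1 (-0.37), the histone H3 methyltransferase gene KMT2B (-0.45) and FBXL19 (-0.58), whose product shares the ZF-CXXC finger, the F-box and the repeats but has no JmjC domain, with a list median of -0.18. At 72 h in BCOR-degron cells 1 rose, again CXXC5 (0.68), and 3 fell, CXXC1 (-0.50), FBXL19 (-0.48) and the 5-methylcytosine oxidase TET1 (-0.41), with a list median of -0.06. These are 4 of 9 each, beside 25.8% and 18.9% of all genes. Against EV, CXXC5 was higher in dCxxC (0.78) and lower in dLRRS (-0.62), LF (-0.49) and SF (-0.27). Counts of higher and lower genes were 1 and 3 in dCxxC, 1 and 4 in dLRRS, 2 and 3 in LF and 2 and 3 in SF, so 4 or 5 of 9 passed where 40% to 47.4% of all genes did.

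Of the other JmjC demethylase genes 18 of 19 were measured. At 72 h in KDM2B-degron cells 5 rose, led by KDM4D (0.92), KDM7A (0.62) and KDM4A (0.48), and 1 fell, RIOX1 (-0.39), a ribosomal oxygenase, with a list median of -0.02. At 72 h in BCOR-degron cells 2 rose, KDM7A (0.40) and KDM3A (0.30), and 3 fell, RIOX1 (-0.35), RIOX2 (-0.31) and KDM3B (-0.21), with a list median of 0.09. The 6 and 5 of 18 stand beside 25.8% and 18.9% of all genes. Against EV, where 40% to 47.4% of all genes passed, counts of higher and lower genes were 3 and 3 in dCxxC, 2 and 6 in dLRRS, 6 and 2 in LF and 7 and 3 in SF, and KDM7A was higher in all of them, with 0.21, 0.38, 1.098 and 0.73. KDM4A was higher in LF (0.94) and lower in dLRRS (-0.32) and dCxxC (-0.21).

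KDM2B and KDM2A carry an F-box, the motif that binds SKP1 in SCF ubiquitin ligases. Of the 4 SCF core genes none passed at 72 h in either degron line, where their medians were 0.01 in KDM2B-degron and 0.00 in BCOR-degron cells. Against EV 2 were higher in dCxxC, 2 in dLRRS, 0 in LF and 1 in SF, and the exchange factor CAND1 was among them with 0.22, 0.28 and 0.27 in dCxxC, dLRRS and SF. Of 17 other F-box genes with leucine-rich repeats 15 were measured. At 72 h FBXL16 rose in KDM2B-degron cells (1.87) and in BCOR-degron cells (0.57), and SKP2, which targets a cell cycle inhibitor, fell in both (-0.44 and -0.55), with 2 rising and 1 falling of the list in KDM2B-degron and 1 and 1 in BCOR-degron cells, beside 25.8% and 18.9% of all genes. Against EV, FBXL16 was higher in dCxxC (1.76) and lower in dLRRS (-0.59) and SF (-1.32), and the counts of higher and lower genes were 5 and 0 in dCxxC, 2 and 4 in dLRRS, 4 and 2 in LF and 5 and 3 in SF, again beside 40% to 47.4% of all genes.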

How the data were processed

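RNA of K562 cells was measured in 96 libraries of 32 groups, 3 libraries each. The authors deposited 4 tables as raw counts per gene ID, and a further table (J2_7) as estimated counts (expected counts) per symbol, of which 57.9% of the nonzero values were whole; these were rounded, and 92 spike-in entries were dropped. Per the labels' protocols, libraries were made with a KAPA kit with ribosomal RNA removal, with Smart-3SEQ as an alternative, single-end reads were analysed with Strand Avadis NGS 3.0, and paired-end reads were mapped to hg38 with STAR; the submitters' processing notes name Trim Galore 0.6.7 and DESeq2. The sources used here do not name the counting program, its strand setting or its annotation. Gene counts do not separate isoforms, nor a construct from the cell's own gene, and whether reads were shared between the paralogs was not tested.

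Each table was fitted on its own with edgeR 4.0.16 in R 4.3.3: filterByExpr (14110 genes tested in the BCOR table, 14524 in the KDM2B, 15910 in the construct, 13374 in the inhibitor and 14649 in the J2_7 table), TMM factors (0.937 to 1.07), robust quasi-likelihood F tests over all groups of the table, and correction over all genes tested by Benjamini-Hochberg. A gene passed with an adjusted p under 0.05; an interval is 1.96 standard errors each way. The fit was tested on simulated counts. CPM values are counts per library size, scaled by TMM. Identical libraries were looked for and not found: the counts of every pair of replicates differed by more than sampling noise, most of all the first EV library with 5PhIAA against the 2 others. Deviations of same-numbered libraries had mean correlations under the 0.1 set for pairing in the BCOR and J2_7 tables, so the main fits have no block. The BCOR mean was close to it, at 0.0935. The columns of the other tables are numbered too, but the labels tie those numbers to no shared replicate, so no block was fitted there.

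Gene models are GENCODE release 44, and promoter windows come from RefSeq on GRCh38.p14. The members and the lists were chosen with earlier results of these data known. The genes named beside them are the 5 with the highest Pearson correlation with a member over group means of log2 CPM (prior count 2), centred within each table, and, of each list, up to 3 in a direction with the largest fold change among those that passed. Alternatives were another scaling, no filter, DESeq2 1.42.0, a fold threshold, unrounded values, a replicate block, fits of the compared groups alone and leaving out each library.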

Additional observations from a re-analysis of the deposited data

How the results depend on the processing

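The 2 genes in 48 comparisons (40 of 2 groups and 8 differences of effects) gave 96 results, and no result that passed changed direction under any alternative run. Adding the labels' fold threshold of 0.585 (log2) ended 14 calls whose values stayed as they were: KDM2A at 8 h of BCOR degradation (-0.29), in LF (-0.43), SF (-0.32) and dCxxC (-0.24) against EV with DMSO, in the same lines with 5PhIAA (-0.38, -0.24 and -0.17), in dLRRS (0.47) and dCxxC (0.20) against LF, in dLRRS against SF (0.35) and in dCxxC against dLRRS (-0.27), and KDM2B in dLRRS against LF (0.30), in dCxxC against dLRRS (0.31) and with 5PhIAA and GSK343 against DMSO (-0.32). KDM2A at 24 h in KDM2B-degron cells passed with median-of-ratios scaling (-0.20) and with DESeq2 (-0.20). With no filter, KDM2A in dCxxC against EV with 5PhIAA no longer passed (-0.14), and calls appeared for KDM2B with GSK343 in the inhibitor table (-0.28) and for KDM2A with both agents in mAID cells (-0.33) and with GSK343 in J2_7 cells (-0.36). With only the compared groups in the fit, KDM2B passed in dLRRS with 5PhIAA against DMSO (0.16), and KDM2A lost its call against EV with 5PhIAA in SF (-0.23) and dCxxC (-0.17). DESeq2 counted 3 of the 9 ZF-CXXC genes past the threshold in dLRRS against EV, where edgeR counted 5. DESeq2 gave no adjusted p for 2 of the 96 results. The cause of these changes was not tested.

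Same-numbered libraries of the BCOR table deviated together with a mean correlation of 0.0935, against -0.0464 for libraries with other numbers. Of 30 same-numbered pairs there, 14 were over 0.1. In the J2_7 table the means were -0.0123 and 0.00628, and 4 of 84 same-numbered pairs were over 0.1. Both same-number means were under the 0.1 set for pairing, so the main fits have no block. A weak shared deviation by number remains in the BCOR table. With a replicate block all 30 results of these tables stayed on their side of the threshold, KDM2A at 8 h of BCOR degradation among them (-0.29). Unrounded values left 20 of 20 results of the J2_7 table on their side.

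Of 672 results from fits that left out 1 library, each for a gene, a comparison and a library left out, 13 lost and 7 gained a call. Their ranges were -0.24 to -0.11 for KDM2A in dCxxC and -0.30 to -0.17 in SF against EV with 5PhIAA, -0.24 to -0.14 for KDM2A at 24 h in KDM2B-degron cells, -0.35 to -0.15 and -0.45 to -0.25 for KDM2A in J2_7 cells with both agents and with GSK343, -0.39 to -0.20 for KDM2A in mAID cells with both agents, -0.38 to -0.28 and -0.37 to -0.18 for KDM2B in the inhibitor table with both agents and with GSK343, and -1.38 to -0.66 for KDM2B between J2_7 and mAID cells. The calls of KDM2A in J2_7 cells were gained without the third DMSO library of J2_7. The SF call was lost without the second EV library with 5PhIAA. Depth limits KDM2B most in the J2_7 table, where it had 1 to 42 counts in a library.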
